A study of Mus musculus with 536 samples.

Results

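The genes described here mark 3 rare white blood cell types, the eosinophil, the basophil and the mast cell. They are the receptor genes Ccr3 and Il5ra, the eosinophil granule genes Prg2 and Epx, the immunoglobulin E receptor genes Fcer1a and Ms4a2, and the granule protease genes Cpa3 and Mcpt8. They are 8 of the 12393 genes that a probe set of the array could name, and they were taken by name. Where a gene has several probe sets the brightest one, by its mean, stands for it, and each of the 8 had 1 probe set. The series measured transcripts in peripheral blood of C57BL/6 mice, 10 to 12 weeks old, after 1 total body exposure to a Cs137 source or none, with blood drawn by cardiac puncture at death. There were 536 arrays of 534 mice, in 4 sets. In the sex and treatment set 226 mice, female or male, had received lipopolysaccharide (LPS, a bacterial wall component), granulocyte colony-stimulating factor (GCSF) or no agent, with 0, 200, 300 or 600 cGy, and were bled at 6 or 24 hr (48 groups of 3 to 5). In the small treatment set 50 mice had received LPS, GCSF or no agent with 0, 150 or 600 cGy and were bled at 6 hr (9 groups of 5 to 6). The dose-time set held 240 mice with no agent, 5 in each of 48 groups, with doses of 0, 100, 200 or 300 cGy or, above these, of 450, 600, 800 and 1050 cGy, and times of 6, 24, 48, 72, 120 or 168 hr. The small 7 day set held 10 mice at 168 hr after 150 cGy and 3 at 168 hr after 0 cGy, besides 3 and 2 unirradiated mice at 6 and 24 hr. Sex is given in the sex and treatment set alone, and the labels do not say when the agents were given.

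Eosinophils and basophils leave the bone marrow as mature cells and make up a small share of blood leukocytes, while mast cells mature in tissues and circulate only as precursors. Eosinophils depend on the cytokine bound by the Il5ra receptor, follow chemokines of the eotaxin family through Ccr3, and carry granules filled with major basic protein (Prg2) and a peroxidase (Epx), whose transcripts are made mostly in marrow precursors. Basophils and mast cells share the high affinity immunoglobulin E receptor and store proteases in their granules.

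Values are log2 signals as the authors deposited them, after robust multi-array averaging (RMA), and differences and errors (± SE unless marked SD) are on that log2 scale. A gene is said to rise or fall where limma gave an adjusted p under 0.05 across 12393 genes, and the share of all genes that passed is given where members are first counted in a comparison. Most of the 8 were dim: by mean over all arrays Epx (4.05) and Prg2 (4.16) stood at percentiles 10.0 and 11.6 of all genes, Ms4a2 (4.22) at 12.4, Il5ra (4.76) at 20.7, Ccr3 (5.01) at 25.2, Mcpt8 (5.56) at 36.3, Fcer1a (6.01) at 46.4 and Cpa3 (8.61) at 88.5. Levels are not compared between genes, since each probe set has its own response, and the number of arrays limits the precision. The files give no detection call, so a dim value may be background. In whole blood RNA, fewer cells of a type and less RNA per cell cannot be told apart. Alb, the liver's albumin gene, reached 10 or more on 116, 61, 23 and 3 arrays of the dose-time, sex and treatment, small treatment and small 7 day sets. The SD of all genes on an array, called array spread below, ran from 1.55 to 2.26 over the sets. No pair of the 1084 pairs of arrays within a group shared over 50% of its values. The labels list the mice as separate samples, and the p-values measure the spread between them. What is called array run below is a code in the sample titles, whose meaning the labels do not state.

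Promoters are shown for the 2 pairs of members that the results below set together, Fcer1a with Cpa3, and Epx with Mcpt8. The factors Gata1 and Gata2, which guide the growth of these lineages, bind the core GATA, and the motif searched was AGATAA on both strands (TTATCT on the opposite strand); no other motif was searched. The RefSeq promoter table (build GRCm38.p6, 250 bases before to 50 after a start) held 7 of the 8 members, and Prg2 was not matched. The motif, in capitals here, was in 3672 (11.2%) of all 32851 promoters listed there. Cpa3 lies at chr3:20242132-20242431 on the minus strand, with 1 match that begins 46 bases before the start. Fcer1a lies at chr1:173227180-173227479 on the minus strand, with 1 match on the opposite strand that begins 92 bases before the start.
Cpa3: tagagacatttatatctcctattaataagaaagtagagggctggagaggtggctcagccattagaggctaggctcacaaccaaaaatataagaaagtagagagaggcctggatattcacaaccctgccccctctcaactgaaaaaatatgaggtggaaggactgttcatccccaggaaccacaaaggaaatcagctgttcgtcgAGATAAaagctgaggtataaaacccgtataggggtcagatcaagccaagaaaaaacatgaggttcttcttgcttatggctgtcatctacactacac
Fcer1a: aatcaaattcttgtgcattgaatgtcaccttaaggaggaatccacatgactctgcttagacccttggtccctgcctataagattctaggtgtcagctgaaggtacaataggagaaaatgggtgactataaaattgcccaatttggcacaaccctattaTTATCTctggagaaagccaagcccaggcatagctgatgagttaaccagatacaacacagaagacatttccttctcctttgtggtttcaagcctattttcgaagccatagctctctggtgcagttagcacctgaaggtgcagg
Epx, at chr11:87875487-87875786, and Mcpt8, at chr14:56085148-56085447, both on the minus strand, hold no match in this window.
Epx: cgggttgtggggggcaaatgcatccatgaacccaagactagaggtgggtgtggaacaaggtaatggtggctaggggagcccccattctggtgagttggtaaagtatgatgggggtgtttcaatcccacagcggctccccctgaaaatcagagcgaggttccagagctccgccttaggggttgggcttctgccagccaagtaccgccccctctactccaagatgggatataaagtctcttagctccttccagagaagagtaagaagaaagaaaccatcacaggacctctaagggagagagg
Mcpt8: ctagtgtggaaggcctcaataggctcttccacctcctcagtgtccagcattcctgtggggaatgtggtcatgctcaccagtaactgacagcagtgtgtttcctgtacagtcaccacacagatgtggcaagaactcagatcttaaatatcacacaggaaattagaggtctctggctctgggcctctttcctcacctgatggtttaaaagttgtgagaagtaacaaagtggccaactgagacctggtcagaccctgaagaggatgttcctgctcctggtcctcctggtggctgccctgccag
Of the other members, Ccr3 (chr9:124021721-124022020, plus strand) has a match 30 bases and Il5ra (chr6:106748988-106749287, minus strand) a match 74 bases before its start, and Ms4a2 (chr19:11623670-11623969, minus strand) has 3, at 224, 37 and 11 bases. A match describes the letters and is not evidence of binding.

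In unirradiated mice, the granule genes Prg2 and Epx and the basophil protease gene Mcpt8 were higher with LPS at 6 hr. Prg2, whose product is the toxic core protein of the eosinophil granule, moved most. In the small treatment set Prg2 was at 5.71, 7.15 and 8.14 (lowest, median and highest of 6 mice) with LPS and at 3.26, 3.77 and 3.99 in 6 mice with no agent. Every LPS mouse lay above every mouse with no agent, and the difference was 3.33 ± 0.22 (limma, adjusted p = 1.3e-16), rank 23 of 12393 genes in order of p. Mcpt8, a protease that mouse basophils make, had 6.76, 7.07 and 7.53 with LPS against 5.14, 5.43 and 5.96 with no agent, again without overlap, and rose by 1.63 ± 0.17 (limma, adjusted p = 1.3e-10). Epx, the eosinophil peroxidase, had 4.42, 4.71 and 6.04 with LPS against 3.62, 4.01 and 4.51 with no agent, which overlap, and rose by 0.86 ± 0.19 (limma, adjusted p = 4.1e-04). With the fall of Cpa3 described further on, 4 of the 8 members passed in this comparison, against 26.2% of all genes. The median over the 8 was 0.12, and over all genes 0.01.

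The sex and treatment set gave the same 3 genes at 6 hr, where 3 of the 8 members passed, against 35.2% of all genes. Prg2 was at 7.98, 8.05 and 8.16 in female LPS mice, against 3.91, 3.94, 4.06, 4.22 and 5.32 in females with no agent. In males Prg2 was at 3.94, 4.43, 6.04, 6.24 and 6.90 with LPS, against 3.72, 3.98, 4.0, 4.13 and 4.28 with no agent. All 3 female LPS mice were high, whereas of the 5 males 1 lay within and 1 just above the range with no agent. Averaged over the sexes the difference for Prg2 was 2.63 ± 0.35 (limma, adjusted p = 2.3e-10). Mcpt8 was at 7.18, 7.36 and 7.36 in female LPS mice, against 5.24, 5.35, 5.39, 5.55 and 5.74 in females with no agent. Male mice had Mcpt8 at 5.39, 5.96, 6.2, 6.22 and 6.34 with LPS, against 5.53, 5.64, 5.68, 5.97 and 6.17 with no agent, so that only the females stood apart, and the mean difference over the sexes was 1.03 ± 0.19 (limma, adjusted p = 4.7e-06). Epx behaved likewise, at 5.12, 5.32 and 5.76 in female LPS mice, against 3.47, 3.54, 3.71, 3.73 and 3.77 in females with no agent. In males Epx was at 3.63, 3.98, 4.62, 4.83 and 4.96 with LPS, against 3.69, 4.0, 4.11, 4.27 and 4.38 with no agent, and over the sexes it rose by 1.04 ± 0.19 (limma, adjusted p = 4.7e-06). The receptor genes Ccr3 (-0.08 ± 0.27) and Il5ra (-0.45 ± 0.21) and the other 3 members did not pass at 6 hr. Il5ra did pass, downward, with the groups of the comparison fitted alone (limma, adjusted p = 0.030), with quantile normalisation (0.049), without arrays with Alb of 10 or more (0.020) and without mouse 5 (0.037). In females the highest Il5ra with LPS was 4.605, against a lowest of 4.858 with no agent, while the male groups overlapped.

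At 24 hr Prg2 was still high with LPS, while the receptor genes Ccr3 and Il5ra were low. Of the 8 members 1 rose and 3 fell, against 21.9% of all genes. Prg2 was at 4.75, 8.30, 9.11 and 10.13 in female LPS mice, against 3.56, 3.58, 3.76, 4.12 and 4.22 in females with no agent, and the 10.13 is the highest value of Prg2 in the series. In males Prg2 was at 3.46, 3.96, 4.05, 4.19 and 4.42 with LPS, against 3.71, 3.89, 3.97, 3.99 and 4.19 with no agent, so that the mean rise over the sexes, 2.15 ± 0.33 (limma, adjusted p = 3.0e-08), came with overlapping groups in males. Ccr3, the eotaxin receptor, was at 4.0, 4.35 and 4.88 in 9 LPS mice, against 5.25, 5.73 and 6.52 in 10 mice with no agent, with no overlap (-1.47 ± 0.26; limma, adjusted p = 1.4e-06). Il5ra, the receptor for the eosinophil growth cytokine, was at 3.5, 3.89 and 5.05 with LPS, against 4.72, 5.26 and 5.76 with no agent, and fell by 1.29 ± 0.20 (limma, adjusted p = 3.9e-08). Ms4a2, the beta chain of the immunoglobulin E receptor, fell by 0.44 ± 0.13 (limma, adjusted p = 0.0077), a call lost when mouse 4 of every group was left out (adjusted p = 0.060). Epx (0.37 ± 0.18) and Mcpt8 (0.24 ± 0.18) did not pass at 24 hr, and the female LPS mice again held the highest values: Mcpt8 was at 5.51, 6.34, 7.56 and 7.84 in them, against 5.33, 5.71, 5.72, 5.94 and 5.97 in females with no agent, and Epx at 3.53, 4.43, 4.90 and 5.58, against 3.52, 3.53, 3.70, 3.79 and 3.99.

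Other genes of these lineages moved in part. Among 10 other eosinophil genes the risers numbered 1 at 6 hr, 3 at 24 hr and 2 in the small set, where 1 fell. The common riser was Prg3, a close relative of Prg2, at 0.53 ± 0.12, 0.49 ± 0.12 and 0.95 ± 0.13. Of 17 other basophil and mast cell genes 2 went up at 6 hr and 3 at 24 hr, when 3 others went down, and in the small set 2 passed each way, with Hdc, the histamine-forming enzyme that neutrophils also use, at 2.43 ± 0.34, 3.34 ± 0.32 and 2.23 ± 0.27. Genes of the promyelocyte granules, made in marrow precursors of neutrophils, rose beside them: 6 of 6 at 6 hr (median 0.91), 5 of 6 at 24 hr (0.71) and 5 of 6 in the small set (0.95), where the mean level of the list was 5.68 to 6.40 with LPS and 4.81 to 5.16 with no agent. Of 9 mature neutrophil genes 6, 9 and 6 rose in the 3 comparisons. The part of these cells in the rise of Prg2, Epx and Mcpt8 was not tested.

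**Figure D1:**
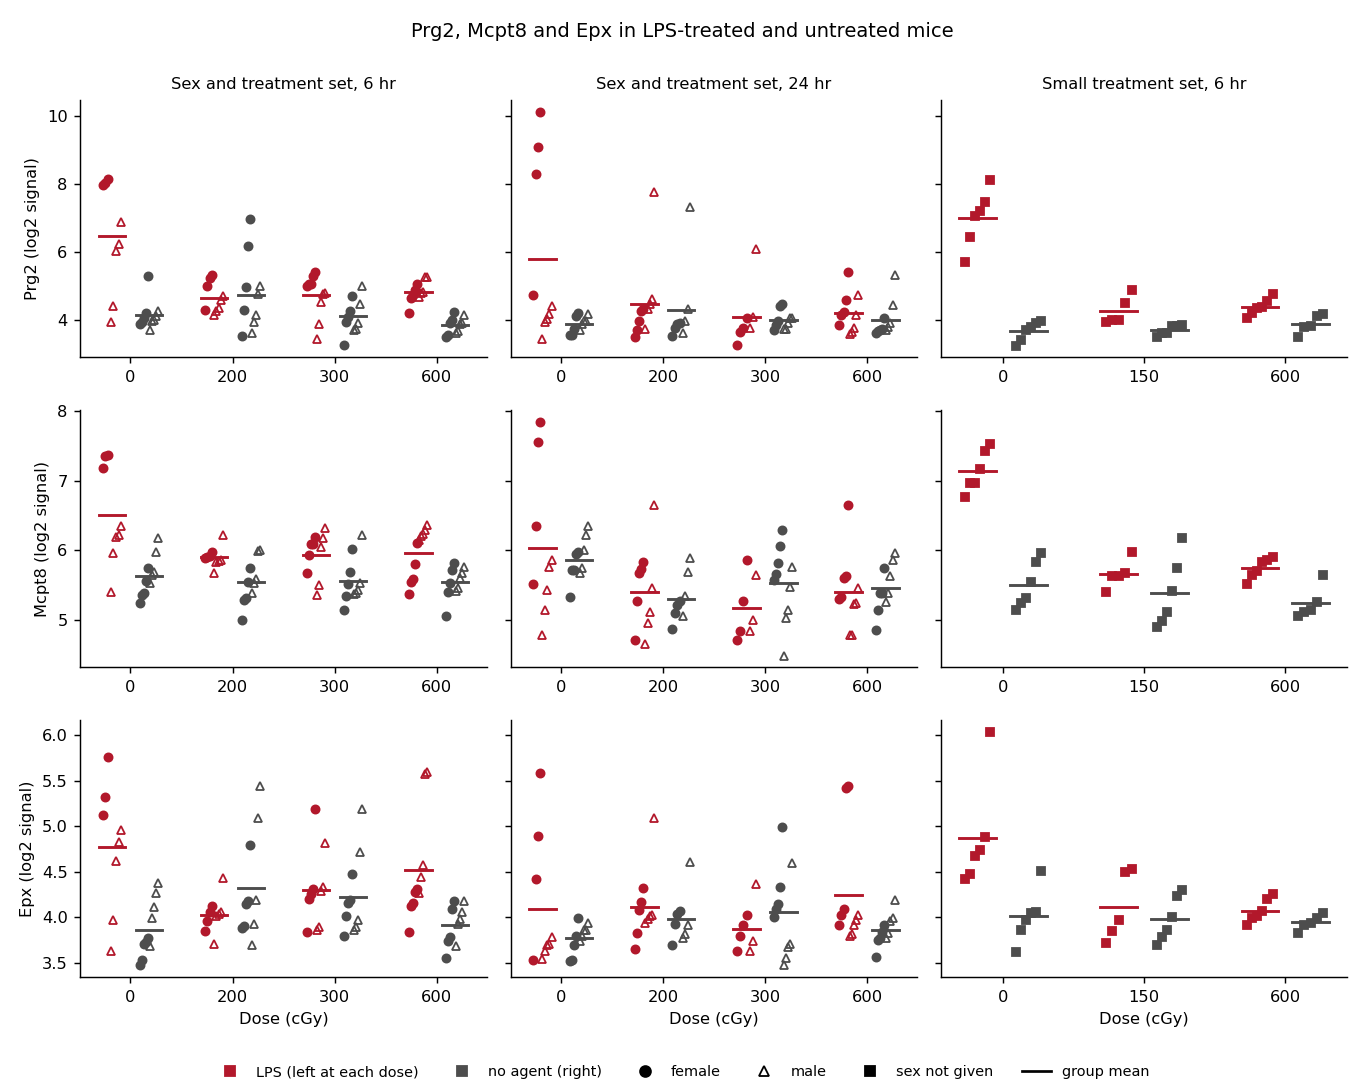
Log2 signal of Prg2, Mcpt8 and Epx (rows) in each mouse by dose in cGy, LPS mice left and mice with no agent right at each dose; circles are females, triangles males, squares mice of unstated sex, and lines are group means. At 0 cGy in the small treatment set all 6 LPS mice lie above the mice with no agent for Prg2 and Mcpt8, and the irradiated LPS mice lie below them.

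Irradiation and LPS together left Prg2 and Mcpt8 far below their level with LPS alone. In the small treatment set, Prg2 was at 3.97, 4.0, 4.01, 4.5 and 4.90 in 5 LPS mice given 150 cGy and at 4.07, 4.38 and 4.76 (lowest, median, highest of 6) in LPS mice given 600 cGy, against 5.71 to 8.14 in unirradiated LPS mice. None of the 11 irradiated LPS mice reached the lowest unirradiated mouse. For Prg2 the difference of 150 from 0 cGy with LPS was -2.74 ± 0.23 (limma, adjusted p = 2.0e-11), the smallest p of all genes, and 3 members fell, against 3.58% of all genes. At 600 cGy it was -2.62 ± 0.22 (limma, adjusted p = 1.8e-11), again the smallest p, and 3 members fell, against 16% of all genes. Mcpt8 was at 5.40, 5.67 and 5.98 in the 11 irradiated LPS mice, against 6.76 to 7.53 in the unirradiated ones. The falls of Mcpt8 were 1.48 ± 0.18 at 150 cGy (limma, adjusted p = 2.7e-07, rank 4 of 12393) and 1.39 ± 0.17 at 600 cGy (limma, adjusted p = 6.8e-08), without overlap. Epx fell by 0.76 ± 0.20 at 150 cGy (limma, adjusted p = 0.021), a call lost without mouse 4 (adjusted p = 0.081) or mouse 5 (0.32) or with the groups of the comparison fitted alone (0.11), and by 0.80 ± 0.19 at 600 cGy (limma, adjusted p = 0.0020).

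With no agent none of the 8 members passed between 600 and 0 cGy by limma (2430 genes at an unadjusted p under 0.05), against 7.38% of all genes. Ccr3 did pass there, downward, under 2 alternatives. These were leaving out the arrays with Alb of 10 or more (-0.88; limma, adjusted p = 0.0033) and array spread as a covariate (-0.48, 0.045). The test of the difference itself, the effect of dose with LPS minus that with no agent, was -2.77 ± 0.32 for Prg2 (limma, adjusted p = 4.2e-07) and -1.36 ± 0.24 for Mcpt8 (adjusted p = 0.0031) at 150 cGy, where 2 members and 0.129% of all genes passed. At 600 cGy it was -2.83 ± 0.32 for Prg2 (limma, adjusted p = 2.2e-07) and -1.13 ± 0.24 for Mcpt8 (adjusted p = 0.0051), with 2 members and 3.15% of all genes passing. The Ccr3 difference at 600 cGy passed without the arrays with Alb of 10 or more (1.29; limma, adjusted p = 0.0022) and with array spread as a covariate (0.90, 0.018). That of Epx passed with array spread as a covariate (-0.87, 0.048) and without mouse 3 (-0.95, 0.045). The Mcpt8 difference at 150 cGy was lost without mouse 5 (-1.11, adjusted p = 0.14), without the arrays with Alb of 10 or more (-1.51, adjusted p = 0.052) and with the groups of the comparison fitted alone (adjusted p = 0.096). Prg3 fell beside them with LPS (-0.79 ± 0.13 at 150 cGy, -0.63 ± 0.13 at 600 cGy). Of 6 promyelocyte granule genes none passed at 150 cGy with LPS, and their mean level stayed at 5.55 to 5.94, against 5.68 to 6.40 in unirradiated LPS mice and 4.69 to 5.17 in mice with 150 cGy and no agent. At 600 cGy 3 of the 6 fell. These 4 comparisons were added after the values had been seen.

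Averaged over the sexes, Prg2 was lower with dose under LPS in the sex and treatment set too, with exceptions. Across 0 to 600 cGy, slopes fell for 2 members at 6 hr, against 32.2% of all genes, and for 2 at 24 hr, against 13% of all genes, and both times these were Prg2 and Mcpt8. For Prg2 the difference of 600 from 0 cGy with LPS was -1.94 ± 0.35 at 6 hr (limma, adjusted p = 4.7e-05) and -1.82 ± 0.33 at 24 hr (adjusted p = 4.0e-05). The 29 irradiated LPS mice had Prg2 at 3.44, 4.81 and 5.43 (lowest, median, highest) at 6 hr, against 3.94, 6.57 and 8.16 in 8 unirradiated LPS mice. At 24 hr the 27 irradiated LPS mice had 3.29, 4.10 and 7.78, against 3.46, 4.42 and 10.13 in 9 unirradiated ones. Of those 9, the 4 females were at 4.75 to 10.13. The 5 males were at 3.46 to 4.42, which overlaps the males with no agent and 0 cGy. The dose slope of Prg2 was not tested in each sex. Mcpt8 fell by 0.70 ± 0.19 at 6 hr (limma, adjusted p = 0.0087) and by 0.71 ± 0.18 at 24 hr (adjusted p = 0.0062), the second call lost without mouse 1 (adjusted p = 0.092) or mouse 3 (0.21) and in a fit of the groups of that comparison alone (0.12). Set against the slope with no agent, the slope of Prg2 under LPS differed at 24 hr (-1.92 ± 0.46 at 600 cGy; limma, adjusted p = 0.0034), as did that of Ccr3 (-0.88 ± 0.36, adjusted p = 0.040), so that 2 members passed, against 16.5% of all genes. The Ccr3 difference was lost without mouse 1, 2, 3 or 5 (adjusted p of 0.057 to 0.35), on a log2 scale of dose (0.093) and with the groups of the comparison alone (0.14). At 6 hr no member passed this test, against 6.45% of all genes, with Prg2 at -1.64 ± 0.48 (limma, adjusted p = 0.10). High Prg2 was not limited to LPS: of 5 females given 200 cGy and no agent, bled at 6 hr, the values were 3.53, 4.29, 4.98, 6.18 and 6.98, and 1 of 4 males given 200 cGy and no agent stood at 7.34 at 24 hr.

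For Mcpt8 at both times, Epx at 6 hr and Prg2 at 24 hr the LPS effect was larger in females, in comparisons added after the values were seen. The effect of LPS at 0 cGy in females minus that in males was 4.16 ± 0.67 for Prg2 at 24 hr (limma, adjusted p = 1.7e-05, rank 2 of 12393) and 1.68 ± 0.36 for Mcpt8 (adjusted p = 0.0028), where 2 members passed, against 1.65% of all genes. At 6 hr it was 1.63 ± 0.38 for Mcpt8 (limma, adjusted p = 0.0084) and 1.45 ± 0.38 for Epx (adjusted p = 0.027), with 2 members and 1.33% of all genes passing, while Prg2 (2.29 ± 0.70, adjusted p = 0.072) did not pass. Epx at 6 hr lost the call without mouse 1, 2, 3 or 5, Mcpt8 at 6 hr without mouse 2 or 5 and Mcpt8 at 24 hr without mouse 1 or 3 (differences of 1.24 to 1.64 and adjusted p of 0.052 to 0.23 over these fits). Prg2 at 24 hr kept it in each of the 5 leave-outs, the fifth of which removed none of the 4 female LPS mice. Prg3 followed at 24 hr (1.30 ± 0.23), and 2 of 6 promyelocyte granule genes had a larger effect in females at each time. With no agent and no irradiation no member passed between females and males at 6 hr, where 27.8% of all genes passed, or at 24 hr, where 0.0726% did.

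Among the mast cell genes, Cpa3 fell with LPS in the small treatment set. Cpa3 encodes carboxypeptidase A3, an enzyme of mast cell granules, and was at 5.89, 7.93 and 9.11 with LPS, against 8.55, 9.66 and 10.62 with no agent, a difference of -1.93 ± 0.55 (limma, adjusted p = 0.0071). It was lost without mouse 2 (-1.51, adjusted p = 0.074) and without the arrays with Alb of 10 or more (-1.81, adjusted p = 0.054). In the sex and treatment set Cpa3 was at -0.05 ± 0.61 at 6 hr and -0.79 ± 0.58 at 24 hr and did not pass. Beside it in the small set, the tissue mast cell proteases Cma1 (-2.01 ± 0.56) and Mcpt4 (-1.39 ± 0.49) and 4 of 6 tissue macrophage genes fell (median -2.36), the mean of that list being 5.66 to 8.10 with LPS and 7.66 to 9.43 with no agent. Their part in the fall of Cpa3 was not tested.

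With GCSF, which drives neutrophil output, none of the 8 members passed the test against no agent in unirradiated mice. At 6 hr limma called 0.00% of all genes, with 283 at an unadjusted p under 0.05, at 24 hr 0.549% of all genes, and in the small set 0.549% of all genes as well. The member with the smallest p was Ccr3 at 24 hr, at 4.65, 5.02 and 5.38 in 10 GCSF mice, against 5.25, 5.73 and 6.52 in 10 mice with no agent (-0.77 ± 0.25; limma, adjusted p = 0.15). The lower ends with GCSF lay below all mice with no agent, but the ranges overlapped, and fitted on the groups of that comparison alone the adjusted p of Ccr3 was 0.0013. For Prg2 the GCSF differences at 6 hr, at 24 hr and in the small set were -0.08 ± 0.32, 0.05 ± 0.32 and 0.40 ± 0.22, with 95% intervals of -0.72 to 0.56, -0.59 to 0.69 and -0.04 to 0.84.

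Dose changed some members in these mice. With GCSF, the slopes of Ccr3 (-0.61 ± 0.26 at 600 cGy) and Il5ra (-0.73 ± 0.20) fell at 6 hr, 2 of 8 members against 52.6% of all genes, and Ccr3 rose at 24 hr (0.66 ± 0.25), the single member to pass beside 30.6% of all genes. With no agent 0 members passed at 6 hr, against 19.9% of all genes. Under some alternatives Il5ra fell and passed there. These were leaving out the arrays with Alb of 10 or more (-0.81; limma, adjusted p = 6.5e-04), quantile normalisation (-0.59, 0.037), a log2 scale of dose (0.027) and leaving out mouse 1 (0.014). At 24 hr Ccr3 (0.80 ± 0.25) and Cpa3 (1.63 ± 0.56) rose and Ms4a2 (-0.38 ± 0.13) fell, 3 of 8 against 41.2% of all genes. The Ccr3 slopes with GCSF were lost without mouse 1, 2, 4 or 5 at 6 hr (limma, adjusted p of 0.057 to 0.26) and without mouse 2, 3, 4 or 5 at 24 hr (0.099 to 0.11). They were also lost at 6 hr with array spread as a covariate (0.14) or arrays centred on their median (0.067), while without the arrays with Alb of 10 or more the 6 hr difference was -1.02 and passed, and at 24 hr with quantile normalisation (0.080) or the groups of the comparison alone (0.084). With no agent at 24 hr the call was lost for Ccr3 without mouse 5 (limma, adjusted p = 0.091), for Cpa3 without mouse 1, 2 or 4 (0.056 to 0.17) and for Ms4a2 without mouse 1, 3, 4 or 5 (0.077 to 0.21). Fitting those groups alone also ended the calls of Ccr3 (0.058) and Ms4a2 (0.060), and centring (0.13) or a block for the array run (0.0515) that of Ms4a2. No member passed between the slopes with GCSF and those with no agent, at 6 hr (0.0161% of all genes passing) or at 24 hr (0.00807%).

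In the dose-time set the slope of the receptor gene Ccr3 passed, downward, at each of the 6 times, the call at 24 hr being lost under several alternatives given below. The slope of log2 signal over the 8 doses was tested at each time, and sizes below are the fitted difference of 600 from 0 cGy. Of the 8 members 2 passed at 6 hr (34.7% of all genes), 2 at 24 hr (38.7%), 4 at 48 hr (47.3%), 4 at 72 hr (53.4%), 6 at 120 hr (82.4%) and 6 at 168 hr (82.2%), which apart from 48 hr was a smaller share than over all genes. The median size over the 8 was -0.56 at 120 hr and -0.50 at 168 hr, against -0.04 and -0.07 over all genes. Tested for any difference among doses, 3 members passed at 6 hr (46.4% of all genes), 6 at 24 hr (59.4%), 4 at 48 hr (56.3%), 5 at 72 hr (59.0%), 8 at 120 hr (95.7%) and 7 at 168 hr (94.5%). The slope differed between times in 7 of the 8 members, Il5ra being the exception, against 92.3% of all genes.

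**Figure D2:**
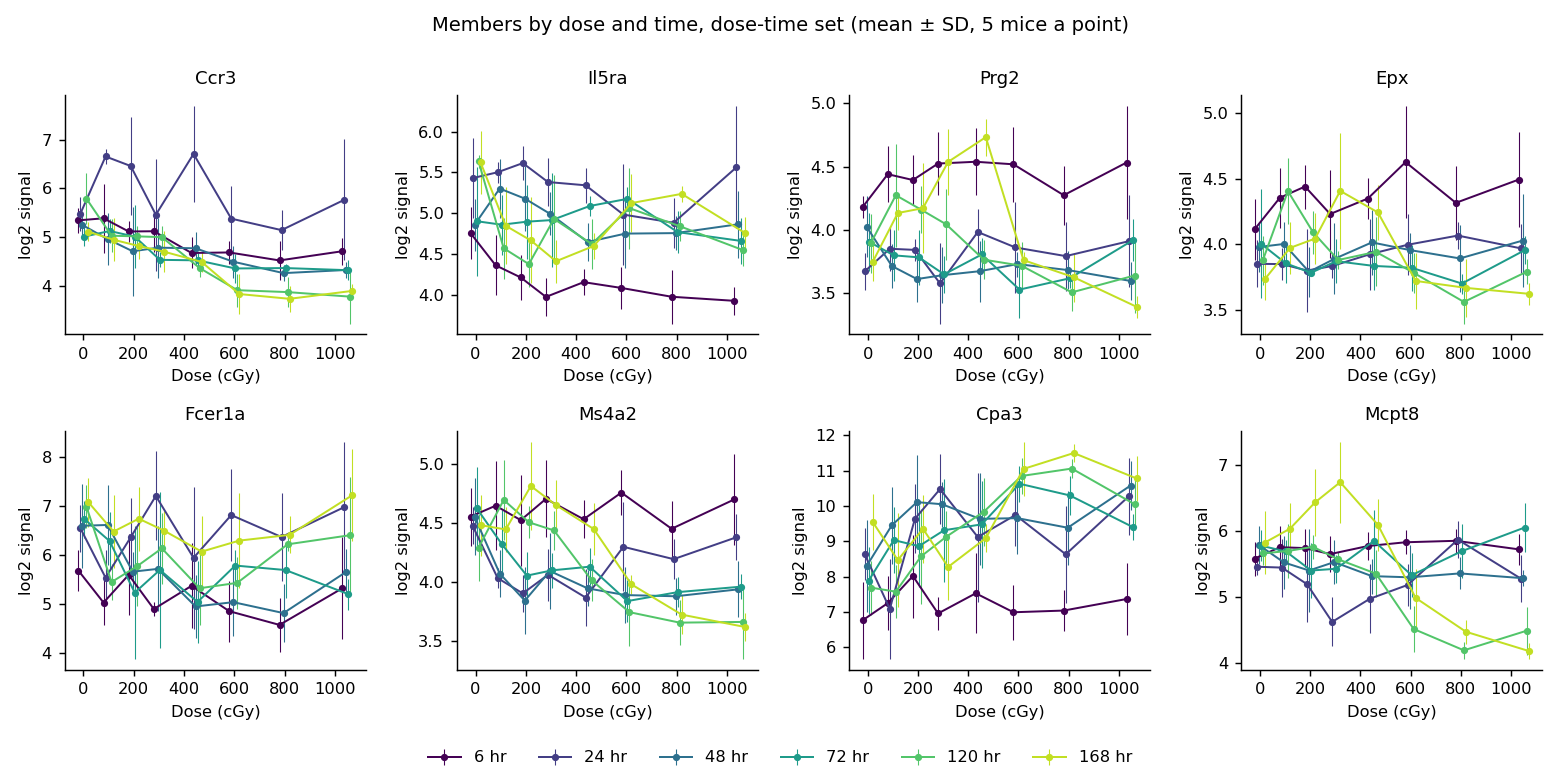
Mean log2 signal (± SD, 5 mice a point) of each member against dose in cGy, with a line for each time in the dose-time set. Ccr3 falls to 3.78 to 3.91 at 600 to 1050 cGy and 120 hr, Cpa3 stands highest at 800 cGy and 168 hr, and Mcpt8, Prg2 and Epx at 168 hr peak at 300 or 450 cGy.

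Ccr3 was at 3.45, 3.65, 4.06, 4.18 and 4.21 at 600 cGy and 120 hr, against 5.35, 5.35, 5.62, 6.05 and 6.58 at 0 cGy. At 168 hr the 600 cGy mice had Ccr3 at 3.13, 3.86, 3.95, 4.02 and 4.19, against 4.97, 4.97, 5.00, 5.19 and 5.41 at 0 cGy. The groups did not overlap at either time, nor at 6, 48 or 72 hr. Without overlap Ccr3 is lower at 600 cGy in every array run by necessity. Its falls were 0.66 ± 0.30 at 6 hr, 0.75 ± 0.30 at 48 hr, 0.66 ± 0.30 at 72 hr, 1.88 ± 0.30 at 120 hr (limma, adjusted p = 6.7e-14) and 1.28 ± 0.30 at 168 hr (adjusted p = 6.2e-09). With array spread as a covariate the differences of Ccr3 were -0.43 at 48 hr and -0.24 at 72 hr, and with quantile normalisation -0.40 at 72 hr, each still passing. At 24 hr the slope of Ccr3 passed (adjusted p = 0.019) with a difference of -0.10 ± 0.30, lower in 3 of 5 runs, and was lost without mouse 2, 3 or 4 (adjusted p of 0.060 to 0.12, the difference being 0.12 without mouse 4, and 0.12 with the call kept without mouse 5) without the 800 cGy mice (0.27), on a log2 scale of dose (0.11) or with the groups of that time fitted alone (0.18). In the sex and treatment set Ccr3 rose at 24 hr instead, as given above, and the sets were not tested against each other. Of the Il5ra slopes that at 6 hr passed: it was at 3.64, 4.12, 4.18, 4.20 and 4.29 at 600 cGy, against 4.24, 4.66, 4.92, 4.94 and 5.03 at 0 cGy (-0.67 ± 0.22; limma, adjusted p = 0.0028), lower in 5 of 5 runs, with the call lost without mouse 2 (-0.51, adjusted p = 0.10). The 6 hr difference of Il5ra was -0.35 with array spread as a covariate (adjusted p = 0.023). The slopes of Il5ra at the other times did not pass, but with that covariate they were downward and passed at 48 hr (-0.51, adjusted p = 0.0011), 72 hr (-0.24, 0.017), 120 hr (-0.69, 8.2e-06) and 168 hr (-0.69, 4.7e-04). At 120 hr Il5ra also passed with arrays centred on their median (0.014), on a log2 scale of dose (0.0046) and with the groups of that time alone (0.047), and at 168 hr on the log2 scale of dose (0.042).

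The slopes of the granule genes Prg2 and Epx did not pass up to 72 hr and fell at 120 and 168 hr. At 6 hr Prg2 was at 4.16, 4.58 and 4.83 (lowest, median, highest) at 600 cGy, against 4.06, 4.19 and 4.30 at 0 cGy, and the slope did not pass (adjusted p = 0.33). Some early slopes passed under alternatives. Epx did at 6 hr on a log2 scale of dose (0.51; limma, adjusted p = 0.024) and without mouse 1 (0.53, 0.018). It also passed at 24 hr with arrays centred on their median (0.20, 0.0496) and at 48 hr with array spread as a covariate (0.31, 0.017). Prg2 passed at 24 hr without mouse 1 (0.22, 0.028) and at 48 hr on the log2 scale (-0.29, 0.025). At 120 hr the group means of Prg2 were 3.89 at 0, 4.27 at 100 and 3.51 at 800 cGy, and those of Epx 3.88, 4.40 and 3.56 at the same doses. Both slopes passed (limma, adjusted p = 1.9e-07 for Prg2 and 5.3e-05 for Epx), while 600 and 0 cGy differed by -0.18 ± 0.14 and -0.09 ± 0.14 (-0.09 for Prg2 without mouse 3 and -0.04 for Epx without mouse 5). At 168 hr 600 and 0 cGy differed by 0.01 in Prg2 and -0.01 in Epx, so that the slopes there do not show in that difference, whose sign changed with the mouse left out. With array spread as a covariate neither slope passed at 120 or 168 hr, and that of Epx did not pass with quantile normalisation at 120 hr (adjusted p = 0.23) or 168 hr (0.66), nor on a log2 scale of dose at 168 hr (0.14).

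Of the immunoglobulin E receptor genes Ms4a2 fell from 48 hr on, and Fcer1a, the chain that binds the antibody, fell at 48 and 72 hr. Ms4a2 was at 3.61, 3.71, 3.87, 3.92 and 4.07 at 600 cGy and 72 hr, against 4.21, 4.43, 4.52, 4.95 and 5.02 at 0 cGy. These groups did not overlap, and groups without overlap differ the same way in every run by necessity. Ms4a2 was lower in 5 of 5 runs at 48, 72, 120 and 168 hr. Its falls were 0.66 ± 0.15, 0.79 ± 0.15, 0.55 ± 0.15 and 0.50 ± 0.15 at those times (limma, adjusted p of 0.0033, 1.6e-05, 3.1e-15 and 8.2e-17), the first lost without mouse 5 (-0.46, adjusted p = 0.10) and with array spread as a covariate (-0.22, adjusted p = 0.41). With that covariate the falls of Ms4a2 at 72 hr (-0.22) and 168 hr (-0.29) were smaller but passed. Fcer1a was at 5.31, 5.68, 5.77, 6.04 and 6.14 at 600 cGy and 72 hr, against 6.45, 6.45, 6.70, 6.71 and 7.37 at 0 cGy, with no overlap and hence lower in every run. The differences of Fcer1a were -1.56 ± 0.48 at 48 hr (limma, adjusted p = 0.0015) and -0.95 ± 0.48 at 72 hr (adjusted p = 0.023), the second lost without mouse 1, 2 or 5 (adjusted p of 0.060 to 0.18) and at -1.93 with array spread as a covariate. At 120 hr the 600 cGy mice still had Fcer1a below all 0 cGy mice, at 4.73 to 5.95, against 6.46 to 7.45, but the slope over all doses did not pass (adjusted p = 0.96), and the mean was 6.22 at 800 and 6.41 at 1050 cGy, against 5.44 at 600 cGy. The Fcer1a slope with array spread as a covariate was downward and passed at 120 hr (-1.78, adjusted p = 0.017) and at 168 hr (-1.15, adjusted p = 0.019).

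Cpa3 was the member that rose. Its values at 120 hr were 10.11, 10.56, 11.10, 11.12 and 11.38 at 600 cGy, against 6.74, 7.19, 7.60, 8.42 and 8.49 at 0 cGy. At 72 hr Cpa3 ranged over 9.85 to 11.11 at 600 cGy, against 6.71 to 8.67 at 0 cGy. The groups did not overlap at either time. The rises were 2.74 ± 0.61 at 72 hr (limma, adjusted p = 0.0015), 3.16 ± 0.61 at 120 hr (adjusted p = 2.6e-10) and 1.5 ± 0.61 at 168 hr (adjusted p = 2.2e-07). Cpa3 was higher at 600 cGy in 5 of 5 runs each time, which at 72 and 120 hr follows from the lack of overlap. At 24 hr (1.11 ± 0.61) and 48 hr (1.35 ± 0.61) the slopes also passed (limma, adjusted p of 0.015 and 0.044), and were lost without mouse 1 or 3 at 24 hr (adjusted p of 0.089 and 0.099) and without mouse 1, 2, 3 or 4 at 48 hr (0.051 to 0.22). Both were also lost with the groups of that time fitted alone (0.056 and 0.070), and that at 48 hr with quantile normalisation (0.20). With array spread as a covariate the rise passed at 24 and 120 hr but not at 48, 72 or 168 hr.

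Markers of other tissues moved in the same mice as Cpa3. The tissue mast cell proteases Cma1 and Mcpt4 ran at 10.29 to 11.43 and 8.90 to 10.32 at 600 cGy and 120 hr, against 6.92 to 8.19 and 5.33 to 7.33 at 0 cGy. Of 6 tissue macrophage genes, 2 rose at 24 hr and 6 at 48, 72, 120 and 168 hr, beside the shares of all genes given above, and their mean level at 120 hr was 10.1 to 11.3 at 600 cGy, against 5.84 to 7.52 at 0 cGy. Hepatocyte genes had a mean of 11.6 to 14.1 at 600 cGy and 120 hr, against 5.05 to 7.78 at 0 cGy, and Alb of 13.5 to 14.6, against 4.92 to 10.0. Their part in the rise of Cpa3 was not tested. Over the 48 group means of the dose-time set the genes most like Cpa3, by Pearson r, were Cma1 (0.985), Mcpt4 (0.981) and the macrophage receptor gene Vsig4 (0.976), given as a description. Those most like Prg2 were Pappa, Atp4a and Prss22, like Epx Sprr3, Syt7 and Tescl, and like Ms4a2 Ralgapa1, Gpank1 and Hif3a (r of 0.939 to 0.949). Mcpt8 had Hipk1, Ube2o and Ypel5 (0.884 to 0.906), and Il5ra had Ighm, Dnajc7 and Gpr137b (0.861 to 0.877). Ccr3 had Polr3k, Pdcd10 and Ndufs4 (0.826 to 0.862), and Fcer1a had Cltc, Slc30a9 and Tgs1 (0.784 to 0.810). None of the genes named for these other members is on the lists of eosinophil, basophil and mast cell genes used here.

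Mcpt8 fell at high doses late after irradiation. Its values at 120 hr were 4.21, 4.34, 4.38, 4.58 and 5.08 at 600 cGy, against 5.48, 5.5, 5.64, 5.81 and 5.88 at 0 cGy. The groups did not overlap, so that Mcpt8 was lower at 600 cGy in every run at 120 hr by necessity. Mcpt8 was lower in 5 of 5 runs at 168 hr. Its falls were 1.14 ± 0.22 at 120 hr (limma, adjusted p = 6.4e-18) and 0.84 ± 0.22 at 168 hr (adjusted p = 9.0e-28). The slopes of Mcpt8 at 48 and 72 hr did not pass, but did under some alternatives. At 48 hr Mcpt8 was lower at 600 cGy in 5 of 5 runs (-0.49). That slope passed with dim genes left out (limma, adjusted p = 0.045) and on a log2 scale of dose (0.020). At 72 hr it passed with array spread as a covariate (0.15, 6.6e-04).

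At 168 hr the course over dose was not a straight line for Mcpt8, Prg2 and Epx. From 0 to 1050 cGy, in order of the 8 doses, group means of Mcpt8 were 5.82, 6.03, 6.43, 6.74, 6.09, 4.99, 4.48 and 4.18. Those of Prg2 were 3.75, 4.13, 4.17, 4.54, 4.73, 3.76, 3.63 and 3.39. Both climbed to a middle dose and were lowest at 1050 cGy. Against 0 cGy, in comparisons added after the values were seen, 4 members passed at 300 cGy (72.7% of all genes) and 5 at 1050 cGy (60% of all genes). Mcpt8 was at 5.96, 6.19, 7.07, 7.21 and 7.25 at 300 cGy, against 5.29, 5.40, 5.88, 6.13 and 6.42 at 0 cGy, which overlap, and rose by 0.91 ± 0.22 (limma, adjusted p = 1.3e-04). Prg2 was at 4.32, 4.40, 4.42, 4.57 and 4.98 at 300 cGy, against 3.61, 3.62, 3.72, 3.84 and 3.95 at 0 cGy, with no overlap, and rose by 0.79 ± 0.14 (limma, adjusted p = 6.6e-07). Epx rose by 0.67 ± 0.14 and Il5ra fell by 1.21 ± 0.22 in the same mice. Cpa3 (-1.27) and Fcer1a (-0.58) did not pass at 300 cGy, but did with those groups fitted alone (limma, adjusted p of 0.014 and 0.036). The Cpa3 difference at 1050 cGy was 1.23, which likewise passed with the groups alone (0.016) and not in the fit of all groups. At 1050 cGy Mcpt8 was at 4.03, 4.12, 4.18, 4.27 and 4.33, below every 0 cGy mouse, and fell by 1.64 ± 0.22 (limma, adjusted p = 3.4e-11). Ms4a2 (-0.86 ± 0.15), Il5ra (-0.86 ± 0.22) and Ccr3 fell there too, as did Prg2 (-0.35 ± 0.14, adjusted p = 0.026), whose call was lost without mouse 2, 3, 4 or 5 (adjusted p of 0.054 to 0.086), with quantile normalisation (0.105) and with array spread as a covariate (-0.06, adjusted p = 0.74).

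Genes of other lineages and the arrays also changed at these middle and high doses. At 300 cGy 4 of 6 promyelocyte granule genes and 2 of 4 erythroid genes rose. Neither share was above the 72.7% of all genes that passed there in either direction, so these rises do not set the 2 lists apart. At 1050 cGy 4 of 4 erythroid genes fell, beside the share of all genes given above for that dose. Gata1, which erythroid cells, platelets, eosinophils and mast cells share, was at 1.31 ± 0.28 at 300 cGy and -2.23 ± 0.28 at 1050 cGy. Mean array spread was 1.76 at 300 cGy and 2.19 at 1050 cGy, against 2.03 at 0 cGy. With array spread as a covariate the rises at 300 cGy were 0.31 for Mcpt8 (adjusted p = 0.34), 0.30 for Prg2 (0.10) and 0.24 for Epx (0.23), and none passed. Il5ra at 300 cGy (-0.68) and Ms4a2 at 1050 cGy (-0.51) passed with smaller falls. With quantile normalisation the rises at 300 cGy were 0.41 for Prg2 and 0.31 for Epx, both passing.

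The small 7 day set measured 150 cGy, a dose between these, in 10 mice against 3. Of the 8 members 3 rose and 3 fell, against 67.1% of all genes. Il5ra was at 4.28, 4.55 and 4.95 (lowest, median, highest) after 150 cGy, against 5.26, 5.64 and 5.89 at 0 cGy, with no overlap (-1.03 ± 0.21; limma, adjusted p = 4.7e-04). Ccr3 was at 4.38, 5.08 and 5.31 after 150 cGy, against 5.30, 6.21 and 6.45 at 0 cGy, and fell by 0.98 ± 0.33 (limma, adjusted p = 0.014). Only Il5ra of these 2 kept apart from its controls in every mouse. Mcpt8 (0.67 ± 0.22), Ms4a2 (0.51 ± 0.15) and Epx (0.78 ± 0.34) rose and Fcer1a (-0.95 ± 0.37) fell, while Prg2 (0.72 ± 0.35, adjusted p = 0.078) did not pass, though its 10 mice at 3.91, 4.27 and 5.08 lay above 3.51, 3.72 and 3.74 at 0 cGy. Leaving out the mouse in positions 1 to 5 of each group in turn left 2 to 6 members called. The 3 controls stayed complete without mouse 4 or 5, and the later mice of the 150 cGy group were never left out. Epx lost its call without mouse 1, 2, 3 or 4, Fcer1a without 1, 2 or 3, Mcpt8 without 1 or 2, Ms4a2 without 1 and Ccr3 without 3 (limma, adjusted p of 0.055 to 0.16 over these). Array spread was 1.68 to 2.03 after 150 cGy, against 2.19 to 2.23 at 0 cGy. These ranges did not overlap, so the effects of dose and of array spread cannot be told apart in this set. In the limma fit with array spread as a covariate 2 members passed. Epx was lower after 150 cGy in that fit (-0.68, adjusted p = 0.012), and Ccr3, Mcpt8, Ms4a2 and Fcer1a did not pass (adjusted p of 0.17 to 0.58). Quantile normalisation ended the calls of Mcpt8 (0.50, adjusted p = 0.10), Ms4a2 (0.13, adjusted p = 0.42), Epx (0.43, adjusted p = 0.27) and Fcer1a (-0.77, adjusted p = 0.14). Of the other eosinophil genes, Siglecf, an eosinophil surface lectin, fell by 1.0 ± 0.29 and Prg3 rose by 0.44 ± 0.13, and 5 of 6 promyelocyte granule and 4 of 4 erythroid genes rose. B cell genes had a mean level of 7.89 to 8.70 after 150 cGy, against 9.92 to 10.17 at 0 cGy. For T cell genes it was 7.66 to 8.98, against 9.69 to 10.18. The part of B and T cells in the falls of Il5ra and Ccr3 was not tested.

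**Figure D3:**
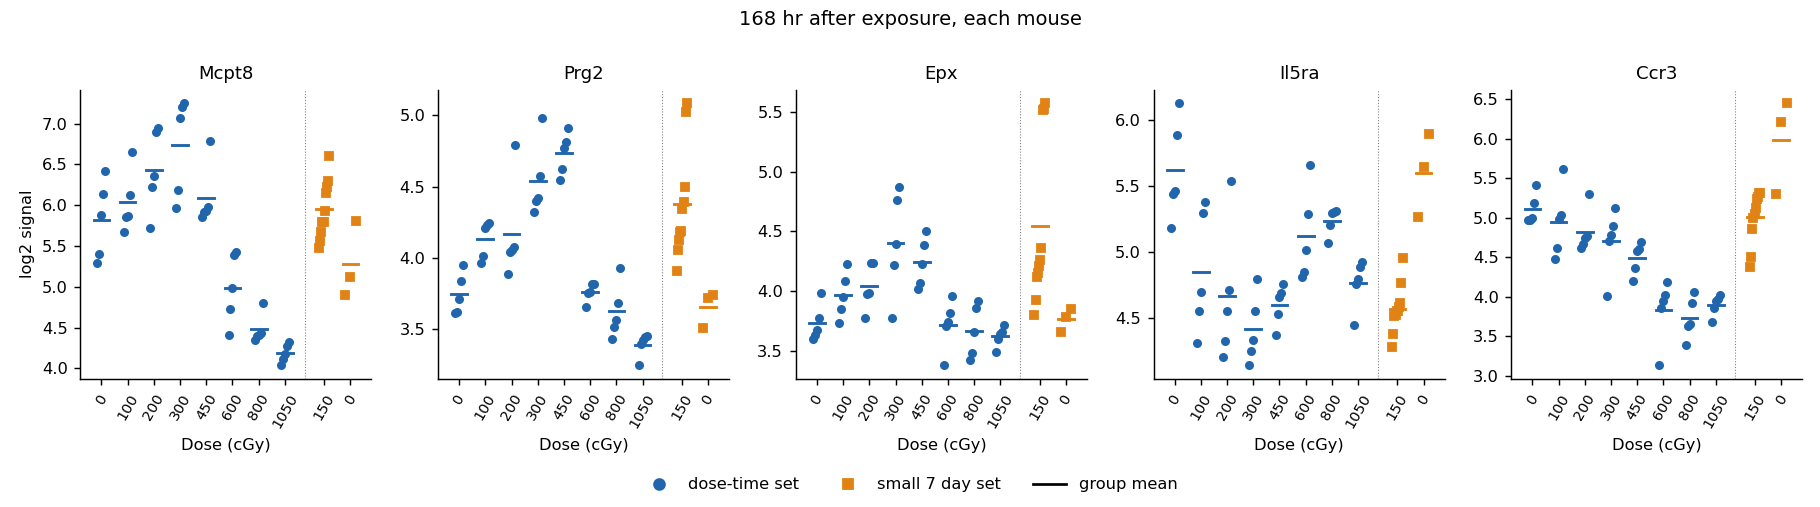
Log2 signal of Mcpt8, Prg2, Epx, Il5ra and Ccr3 in each mouse at 168 hr, by dose in cGy in the dose-time set (circles), then 150 and 0 cGy in the small 7 day set (squares), with lines at the group means. Mcpt8 averages 6.74 at 300 cGy and 4.18 at 1050 cGy in the dose-time set, and Ccr3 stands lowest at 600 to 1050 cGy.

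Genes of the same lineages from wider lists did not share one direction over dose. Among 10 other eosinophil genes 3, 4, 6, 5, 5 and 4 rose at 6, 24, 48, 72, 120 and 168 hr, with 5 lower at 120 hr and 6 at 168 hr. Of 17 other basophil and mast cell genes 5, 8, 8, 10, 10 and 8 rose at those times, and 0, 1, 1, 3, 6 and 7 fell. The shares of all genes that passed in either direction ran from 34.7% at 6 hr to 82.4% at 120 hr. At 72 hr the lineage factors Gata2 (2.83 ± 0.24) and Gata1 (2.45 ± 0.28) and Fcer1g (2.04 ± 0.18), the signalling chain that Fcer1a shares with other receptors, changed by these differences of 600 from 0 cGy.

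Mouse by mouse, Fcer1a varied with Cpa3 even where both belonged to the same group. Each mouse was taken as its deviation from the mean of its group, which removes dose, time, agent and, in the sex and treatment set, sex (sex is not given for the dose-time mice). Over 240 mice of the dose-time set Fcer1a and Cpa3 had Pearson r = 0.750 and Spearman rho = 0.748 (permutation test, p = 1e-05 each, the smallest that 100000 permutations give, adjusted p = 3.3e-05 and 3.1e-05 over 184 relations). Without the 2 mice farthest in Fcer1a, r was 0.744, and within the 5 array runs it ran from 0.680 to 0.817. Over 226 mice of the sex and treatment set r was 0.887 and rho 0.885 for the same pair. Cpa3 varied with Cma1 at r = 0.966 and 0.951 in these sets (rho 0.968 and 0.945), with Mcpt4 at r = 0.946 and 0.925 (rho 0.938 and 0.928), and with the mean of the tissue macrophage genes at r = 0.915 and 0.768 (rho 0.911 and 0.762). Fcer1a varied with Cma1 at r = 0.720 and 0.863 (rho 0.722 and 0.866), all with the same permutation p. Ms4a2, the partner chain of Fcer1a, did not follow it: r was -0.147 (permutation test, adjusted p = 0.052) and -0.199 (adjusted p = 0.013), and rho -0.177 and -0.153. What the mice with high Cpa3, Cma1 and macrophage values share was not tested.

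**Figure D4:**
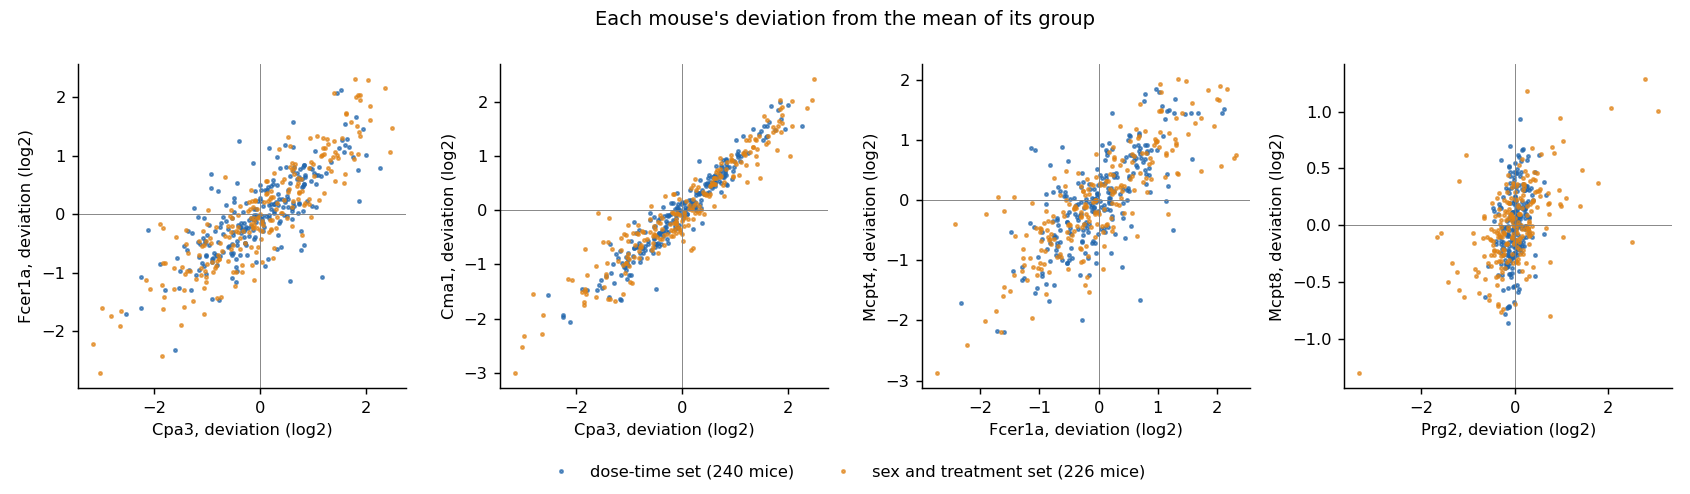
Each point is a mouse, placed by its deviation (log2) from the mean of its group for the gene pairs Cpa3 and Fcer1a, Cpa3 and Cma1, Fcer1a and Mcpt4, and Prg2 and Mcpt8, with blue points for the dose-time set and orange for the sex and treatment set. The first 3 panels follow a diagonal, while the Prg2 and Mcpt8 panel is a narrow column with a few orange points far from 0.

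In the sex and treatment set Prg2, Epx and Mcpt8 varied together as well. Prg2 and Mcpt8 had r = 0.560 and rho = 0.510, Prg2 and Epx r = 0.554 and rho = 0.499, and Epx and Mcpt8 r = 0.516 and rho = 0.457 (permutation test, p = 1e-05 each, adjusted p = 3.3e-05 for r and 3.1e-05 for rho). In the dose-time set r for these pairs was 0.357, 0.308 and 0.268. Prg2 varied with the mean of the promyelocyte granule genes in the sex and treatment set at r = 0.584 (rho 0.469), but in the dose-time set r was 0.161 (rho 0.088; permutation test, adjusted p = 0.053 for r). Epx varied with those genes in both sets, at r = 0.552 (rho 0.465) in the sex and treatment set and 0.346 (rho 0.319) in the dose-time set (permutation test, adjusted p = 3.3e-05 for r in each). Mcpt8 did so at r = 0.485 (rho 0.391) in the sex and treatment set, and at 0.072 (rho 0.085; permutation test, adjusted p = 0.37 for r) in the dose-time set. Array spread ran against Mcpt8, with r = -0.423 and -0.609 in the dose-time and the sex and treatment sets, against Prg2, with -0.527 and -0.417, against Epx, with -0.467 and -0.701, and against Ms4a2, with -0.583 and -0.628. The part of array spread in these relations was not tested.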

How the data were processed

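Blood RNA, reduced in globin transcripts, was hybridised to Affymetrix mouse 430A 2.0 arrays. The authors deposited log2 signals made with RMA in the affy package, per the submitters' processing notes (versions not given in the sources used here). Of 22690 probe sets 20380 had 1 gene symbol in the platform annotation and gave 12393 genes, each by its probe set of highest mean. A group-means model was fitted in each set with limma 3.58.1 (R 4.3.3), p-values were adjusted by Benjamini-Hochberg over 12393 genes, and tests are two-sided at 0.05. Dose trends are contrasts for the slope on dose, and their sizes are 600 minus 0 cGy. Sex was averaged where it is not named. The 2 mice scanned again had their scans averaged. The array run is a code in the sample titles, and the labels do not say what it marks. The steps were tested on simulated data. All members are named, with up to 4 genes a comparison of smallest p from lists of the same lineages and the 3 genes most like each member; members and lists were chosen with earlier results of these data known. Relations used 100000 permutations. Alternatives covered normalisation, probe sets, dim genes, array run, array spread, Alb, dose scale, the samples fitted and leaving out mice. Mouse numbers were taken from the labels or accession order and do not pair mice. In the leave-outs a mouse number is a position within its group, and a group without that position lost no mouse.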

Additional observations from a re-analysis of the deposited data

Results flagged for a closer look

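Over 208 combinations of a member with a group of 4 to 10 mice, 11 had 1 mouse far from the others, where chance gives about 1 in 20. In the dose-time set these were Il5ra at 600 cGy and 6 hr (lowest mouse 3.636), at 0 cGy and 72 hr (highest 6.091) and at 0 cGy and 120 hr (lowest 5.488). They were also Prg2 at 600 cGy and 24 hr (highest 4.487), Epx at 600 cGy and 72 hr (highest 4.126), Fcer1a at 0 cGy and 72 hr (highest 7.37), Ms4a2 at 0 cGy and 6 hr (lowest 4.123) and Cpa3 at 0 cGy and 6 hr (highest 8.637). In the sex and treatment set it was Prg2 in females with no agent at 0 cGy and 6 hr (highest 5.318). In the small treatment set these were Epx with LPS at 0 cGy (highest 6.039) and Fcer1a with no agent at 0 cGy (highest 8.856).

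Effects that differed between groups by their own test in limma were the following. The dose slope differed between times in the dose-time set for Mcpt8 (F = 40.45), Ms4a2 (20.36), Prg2 (10.66), Epx (7.455), Cpa3 (5.767), Ccr3 (4.483) and Fcer1a (3.667). The dose slope at 24 hr with LPS, less that with no agent, came to -1.924 for Prg2 and -0.8779 for Ccr3 at 600 cGy. The LPS effect in females less that in males was 1.626 for Mcpt8 and 1.446 for Epx at 6 hr, and 4.163 for Prg2 and 1.683 for Mcpt8 at 24 hr. In the small treatment set the dose effect with LPS less that with no agent was -2.766 for Prg2 and -1.358 for Mcpt8 at 150 cGy, and -2.827 for Prg2 and -1.13 for Mcpt8 at 600 cGy.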

How the results depend on the processing

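Counts are members called out of 8 by limma. The calls of Prg2, Epx and Mcpt8 with LPS at 0 cGy and 6 hr held, in the sex and treatment and the small treatment set, under each alternative that gave a value. With array spread as a covariate some slopes or differences changed sign, and the cause was not tested. The slopes were those of Epx at 120 hr (600 minus 0 cGy 0.002906) and 168 hr (0.1451), and of Fcer1a at 120 hr (-1.777) and 168 hr (-1.147). Those of Fcer1a then fell and passed while 600 minus 0 cGy stayed negative. The differences were Ms4a2 at 300 cGy and 168 hr (-0.4111), and Epx after 150 cGy in the small 7 day set (-0.6818), where spread did not overlap between the doses. That covariate also gave 2 for any dose at 48 hr, any dose at 72 hr and the slope by time, 4 for the LPS trend at 6 hr, 1 for the GCSF trend at 6 hr, 3 for the LPS slope difference at 6 hr, 1 for 600 cGy with no agent, 2 in the 7 day set, 4 for the 600 cGy difference and 2 for 300 cGy at 168 hr. The mouse number as a replicate block moved 1 of 41 counts by over 1.5 times, the LPS slope difference at 6 hr, to 1; the mean correlations of mice of 1 number were 0.014, 0.045, 0.058 and -0.124 in the 4 sets, and the numbers do not pair mice. Fitted on the groups of the comparison alone, counts were 0 for the trend at 24 hr, 2 for any dose at 48 hr, 2 for GCSF against no agent at 24 hr, 1 for the trends at 24 hr with no agent and with LPS, 4 and 0 for the GCSF trends at 6 and 24 hr, 4 and 1 for the LPS slope differences, 3 for female against male at 6 hr, 1 for the 150 cGy difference and 6 for 600 cGy with LPS. Leaving out dim genes, which keeps 3 members (4 in the 7 day set), moved 30 of 41 counts to between 0 and 3. Quantile normalisation gave 2 for any dose at 48 hr, 1 for the trend with no agent at 6 hr, 0 for the GCSF trend at 24 hr, 1 for the LPS slope difference at 6 hr and 2 in the 7 day set; centring on the median gave 1 for any dose at 6 hr. Without arrays with Alb of 10 or more there was 1 for the trend with no agent at 6 hr, the LPS slope difference at 6 hr, 600 cGy with no agent and the 150 cGy difference. A log2 dose scale gave 1 for the trend at 24 hr and with no agent at 6 hr, 4 and 2 with GCSF and 1 for both LPS slope differences, and leaving out 800 cGy gave 1 at 24 hr. Leaving out a mouse of each group gave, for trends, 1 to 3 at 6 hr, 0 to 3 at 24 hr, 3 to 4 at 48 and 72 hr and 6 to 7 at 120 hr; for any dose 0 to 3, 4 to 5, 2 to 4, 2 to 5, 7 to 8 and 7 to 8; for LPS 3 to 4 at each time and in the small set; for trends with no agent 0 to 1 and 1 to 2, with LPS at 24 hr 1 to 2, and with GCSF 1 to 3 and 0 to 1; for the LPS slope differences 0 to 1 and 1 to 2; for the 7 day set 2 to 6; for sex 0 to 2 and 1 to 3; for 150 cGy with LPS 2 to 3, its difference 1 to 2, 600 cGy with LPS 3 to 4, its difference 2 to 3; and for 300 and 1050 cGy 4 to 5. The array run block, the first scan, the prior and the mean of probe sets moved no count by over 1.5 times. Most members are dim, and their low values may be background.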
